A study of Mus musculus with 6 samples.

Results

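The endocannabinoid genes described here are 10 protein-coding genes, namely *Cnr1*, *Cnr2*, *Gpr18*, *Dagla*, *Daglb*, *Mgll*, *Abhd6*, *Abhd12*, *Napepld* and *Faah*. They were taken from the table by an exact match of the gene symbol, and all 10 of them were found among 19225 listed genes. The RNA came from CD11b-enriched brain cells of male mice, isolated with magnetic beads after mechanical dissociation and removal of myelin. CD11b is a surface protein of myeloid cells, so the enrichment yields mainly microglia, the resident macrophages of the brain. There were 3 libraries labelled *Cnr1*+/+ (genotype wt/wt) and 3 labelled *Cnr1*-/- (strain Cnr1 tm1Zim, genotype d/d), each from an animal given as 3 months old, whereas the methods of the study give a younger age. None of the animals had been stressed, and both genotypes were on a C57BL/6J background. The deletion was constitutive, meant to remove the receptor from every cell of the body, and was made by a neomycin cassette in the coding region of *Cnr1*. The methods of the study name 3 mice per genotype, as many as there are libraries, so each library was taken as 1 mouse.

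Endocannabinoids are lipid messengers made on demand from membrane lipids. The best known are 2-arachidonoylglycerol (2-AG) and anandamide, which act on the G protein-coupled receptors CB1, found mostly on neurons, and CB2, found mostly on immune cells. Diacylglycerol lipases make 2-AG and a group of serine hydrolases breaks it down to arachidonic acid, the precursor of prostaglandins. Anandamide is made along several routes, among them that through the phospholipase NAPE-PLD, and is hydrolysed by fatty acid amide hydrolase. Microglia are known to make 2-AG, and CB2 is the cannabinoid receptor usually linked to them.

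Expression was measured from the 3′ ends of polyadenylated transcripts. Since a transcript gives its reads from its 3′ end, the values were not divided by gene length, and levels of different genes are set side by side in cpm, read counts brought to a common library total and scaled by the authors with the trimmed mean of M values (TMM). From the steps between low values, 1 read was worth 0.0933 to 0.130 cpm, which corresponds to effective library sizes of 7708814 to 10723827 reads. A total of 3 reads, the limit that a count of 0 allows, was 0.280 to 0.389 cpm. Of the 60 values of the 10 genes, 53 were whole numbers of reads within 0.02 reads, the others belonging to *Abhd6* and *Abhd12*. Intervals given for reads cover counting error only.

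The cells matched their label. The summed level of 14 microglial markers was 16229 to 18731 cpm in the libraries labelled *Cnr1*+/+ and 17327 to 18461 cpm in those labelled *Cnr1*-/-, led by *Cx3cr1* at 4743 to 5648 cpm. *Cnr1*-/- replicate 2 stood apart, with a sum of 4117 cpm over 11 neutrophil markers (270 to 532 cpm in the other 5 libraries, led by *S100a9*), 2342 cpm over 7 erythrocyte markers (136 to 237 cpm, led by *Hba-a2*) and 109 cpm over 6 monocyte markers (31.0 to 36.3 cpm, led by *Ccr2*). The 9 neuronal markers summed to 48.3 to 59.0 cpm (led by *Map2*), the 7 astrocyte markers to 299 to 551 cpm (*Slc1a2*), the 7 oligodendrocyte markers to 429 to 861 cpm (*Mbp*), the 8 markers of border-associated macrophages to 98.7 to 150 cpm (*Mrc1*), the 7 endothelial markers to 18.4 to 30.9 cpm (*Pecam1*) and the 3 listed of 11 lymphocyte markers to 5.29 to 10.2 cpm (*Cd79b*). The ranges of the 2 genotypes overlapped for each of these lists. In RNA of mixed cells, fewer cells of a type and less RNA per cell cannot be told apart.

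The genes spanned a wide range of levels. *Abhd12* was the highest with a mean of 270 cpm over the 6 libraries, above 99.05% of the listed genes. It was followed by *Daglb* (89.9 cpm), *Mgll* (84.9 cpm), *Abhd6* (48.1 cpm), *Dagla* (16.7 cpm) and *Cnr2* (8.15 cpm). *Napepld* (1.02 cpm), *Cnr1* (0.735 cpm), *Faah* (0.393 cpm) and *Gpr18* (0.180 cpm) lay near the limit of detection. From *Abhd12* down to *Napepld*, each gene exceeded the next in all 6 libraries with ranges that did not overlap, except that *Daglb* exceeded *Mgll* in 4 of 6 libraries. The 4 lowest genes could not be ordered, since their ranges overlapped. Summed by role, the 3 hydrolases of 2-AG made up 77.4% of the cpm of all 10 genes, the 2 diacylglycerol lipases 20.6%, the 3 receptors 1.75% and the 2 anandamide enzymes 0.271%. The rank of *Daglb* and these shares are uncertain as far as its level is, because of the overlapping gene described below.

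**Figure D1:**
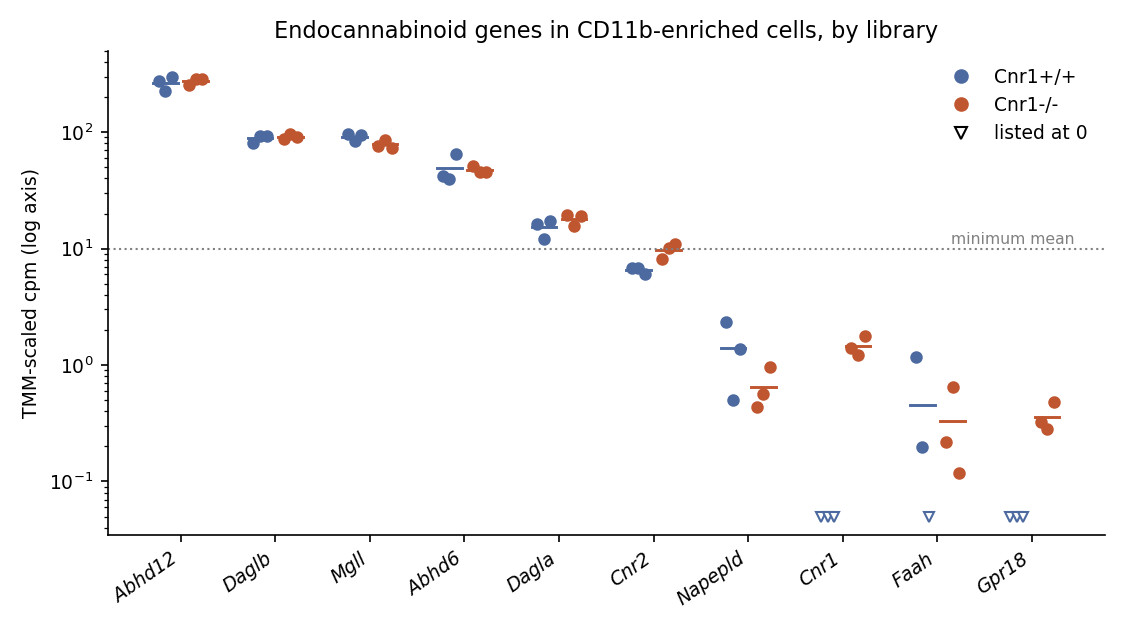
TMM-scaled cpm (log axis) of each of the 10 genes in the 3 *Cnr1*+/+ (blue) and 3 *Cnr1*-/- (orange) libraries, with short lines at the group means, open triangles for libraries listed at 0, and a dotted line at the minimum mean of 10 cpm required for testing. The genotypes are separate for *Cnr2*, *Cnr1* and *Gpr18* and overlap for the other 7 genes, and levels fall from *Abhd12* at 270 cpm to *Gpr18* at 0.180 cpm.

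The genotype labels were compared gene by gene with limma on log2(cpm + 0.1). The mean over the libraries had to reach 10 cpm, as it did for 6659 genes, including 5 of the 10 endocannabinoid genes (*Dagla*, *Daglb*, *Mgll*, *Abhd6* and *Abhd12*). None of the 5 had a nominal p under 0.05, a threshold that 6.02% of all tested genes (401 genes) passed, and none combined a fold change over 1.5 with an adjusted p under 0.1, as 0.0901% (6 genes) did. Their adjusted p-values (limma, Benjamini-Hochberg over all tested genes) lay between 0.857 and 0.995. With limma and vooma weights, or without a mean-variance trend, the count was 0 as well. Under 3 other scalings of the libraries *Mgll* passed the nominal threshold, as given below. Regardless of the filter, 3 of the 10 genes (*Cnr1*, *Cnr2* and *Gpr18*) had every value in the libraries labelled *Cnr1*-/- above every value in those labelled *Cnr1*+/+. This pattern was shown by 6.54% of all listed genes. These 3 are the receptors among the 10 genes. When *Cnr1*-/- replicate 2 was left out, 9.97% of all listed genes showed it. *Dagla* then showed it as well, at 19.5 and 19.2 cpm against at most 17.4 cpm in the libraries labelled *Cnr1*+/+. The 5 tested genes each overlapped between genotypes, whereas 731 of the 6659 tested genes (11%) did not overlap in either direction.

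*Cnr1* encodes CB1 and is the gene targeted in the mutant. It lies on chromosome 4 (chr4:33924593-33948831, mm10, plus strand) and no annotated gene overlaps it. It was listed at 0 in each of the 3 libraries labelled *Cnr1*+/+. In the libraries labelled *Cnr1*-/- it was 1.41, 1.21 and 1.79 cpm in replicates 1, 2 and 3, which correspond to 13, 13 and 15 reads with exact 95% Poisson intervals of 0.749 to 2.41, 0.645 to 2.07 and 1.00 to 2.95 cpm. The direction is thus the reverse of that a loss of the transcript would give. Set against 3 reads in the shallowest *Cnr1*+/+ library, the lowest of these values, taken as measured, was at least 3.12-fold higher. The exact 95% interval of a count of 0 in that library reaches 0.479 cpm, below the lower bounds of all 3 libraries labelled *Cnr1*-/-. The two-sided exact permutation test gave p = 0.1, the smallest that 3 against 3 libraries allow, and the level of *Cnr1* was below the minimum for the main limma test. Fitted without a filter, its nominal p of 0.000784 became 0.358 after adjustment (limma, Benjamini-Hochberg).

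These *Cnr1* reads do not check the genotype labels. The libraries sample the 3′ ends of transcripts, whereas the cassette sits in the coding region, and the table holds no read positions. Neither the reads in the libraries labelled *Cnr1*-/- nor their absence in those labelled *Cnr1*+/+ can therefore be assigned to an allele, and the cause was not tested. The groups are therefore named by their labels, and every direction below rests on them. To the nearest read, 19 of 19225 listed genes (0.0988%) were at 0 in the libraries labelled *Cnr1*+/+ and above 3 reads in each labelled *Cnr1*-/-. The opposite was shown by 6 genes. The pattern was defined from the values of *Cnr1*, and abundant genes are not at 0. The share therefore does not measure how unusual *Cnr1* is among genes of its level. Among those 19 genes only *Cd177*, a neutrophil surface gene at 12.1 cpm in *Cnr1*-/- replicate 2, had more reads in total than the 41 of *Cnr1*. *Cd177* was named after its values were seen.

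The listed genes nearest to *Cnr1* lie between 422 and 723 kb before it (*Gm11930*, *Pnrc1* and *Rngtt*) and between 431 and 509 kb after it (*Gm12752*, *Gm12754* and *Gm12351*). *Pnrc1*, a nuclear receptor coactivator, was 47.1 ± 4.93 cpm in the libraries labelled *Cnr1*+/+ and 49.1 ± 7.45 cpm in those labelled *Cnr1*-/- (SD, n = 3; limma adjusted p = 0.981). *Rngtt*, the mRNA capping enzyme, was 5.97 ± 3.09 and 7.40 ± 1.23 cpm, with overlapping groups. Of the 4 pseudogenes, *Gm12754* (0.196 ± 0.195 and 0.743 ± 0.0926 cpm) did not overlap between genotypes, and *Gm11930* was effectively at 0 in each *Cnr1*+/+ library and in *Cnr1*-/- replicate 1 and at 0.766 and 0.519 cpm in *Cnr1*-/- replicates 2 and 3. *Gm12752* (1.04 ± 0.359 and 1.33 ± 0.499 cpm) and *Gm12351* (0.170 ± 0.154 and 0.217 ± 0.0999 cpm) overlapped.

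*Cnr2* encodes CB2, the cannabinoid receptor of immune cells. It lies on the same chromosome as *Cnr1* (chr4:135895394-135920207, plus strand), 101.9 Mb away. It was 6.88, 6.78 and 6.10 cpm in the libraries labelled *Cnr1*+/+ and 8.12, 10.1 and 10.97 cpm in those labelled *Cnr1*-/-, or 53, 68 and 58 against 75, 108 and 92 reads. Every library labelled *Cnr1*-/- was higher than every library labelled *Cnr1*+/+, with means of 9.72 ± 1.46 and 6.59 ± 0.424 cpm (SD, n = 3), a ratio of 1.48. The exact permutation test gave p = 0.1, the smallest possible. Since its mean was under 10 cpm, *Cnr2* was not tested in the filtered table. Fitted without a filter, its log2 difference was 0.55 (SE 0.304, 95% interval -0.07 to 1.16) and its nominal p of 0.0798 became 0.954 after adjustment (limma, Benjamini-Hochberg). The nominal p of *Cnr2* lay between 0.0421 and 0.186 over 14 alternatives and fell under 0.05 without the mean-variance trend only (adjusted p between 0.827 and 0.998).

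The coefficient of variation of *Cnr2* was 6.43% among the libraries labelled *Cnr1*+/+ and 15.0% among those labelled *Cnr1*-/-, and counting alone gives 9.62 to 13.7% at these reads. The difference did not rest on *Cnr1*-/- replicate 2, since its log2 value was 0.51 without that library. Expressed per 1000 cpm of the 14 microglial markers, *Cnr2* was 0.424, 0.417 and 0.326 in the libraries labelled *Cnr1*+/+ and 0.469, 0.546 and 0.614 in those labelled *Cnr1*-/-. These values did not overlap either (exact permutation p = 0.1), so the order of the groups was the same when set against microglial RNA.

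The tested genes whose log2 values followed those of *Cnr2* most closely over the 6 libraries were *Gpi1* (Pearson r = 0.992), an enzyme of glycolysis, *Bco2* (r = 0.992), a carotenoid-cleaving enzyme, and *Tsc22d2* (r = 0.983). The most opposite ones were *Enpp4* (r = -0.960), *Pigu* (r = -0.960) and *Gm11353* (r = -0.945). Of 6659 genes, 82 had an r over 0.9 and 18 an r under -0.9. These values describe 6 libraries that share their genotype split, and with so few libraries many genes reach such values.

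*Gpr18* encodes a G protein-coupled receptor reported to respond to N-arachidonoyl glycine, a metabolite of anandamide. It lies on chromosome 14 (chr14:121911253-121915781, minus strand), wholly within *Ubac2* on the opposite strand. The 3 libraries labelled *Cnr1*+/+ held no read of it, and it was 0.325, 0.280 and 0.477 cpm in those labelled *Cnr1*-/-, which is 3, 3 and 4 reads. Each of these counts is at, or 1 read above, the limit of 3 reads that a count of 0 allows. *Ubac2* was at 20.7 to 33.1 cpm with overlapping groups. The library kit keeps the strand, but whether counting used it is not given in the sources used here, so reads of *Gpr18* and *Ubac2* could not be told apart.

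**Figure D2:**
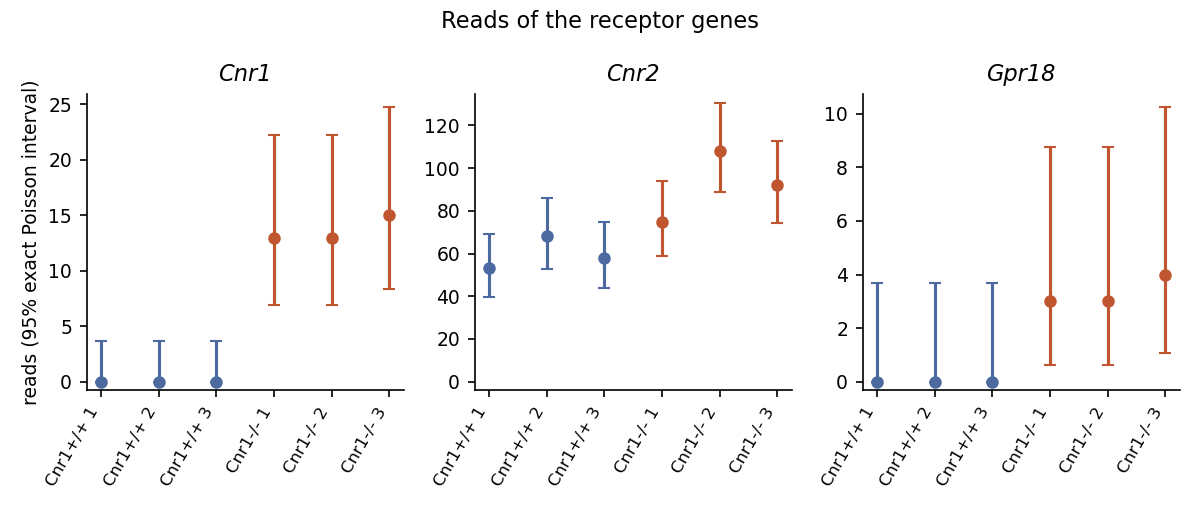
Reads of *Cnr1*, *Cnr2* and *Gpr18* in each library, with exact 95% Poisson intervals and a separate vertical axis for each gene. *Cnr1* and *Gpr18* have 0 reads in the 3 *Cnr1*+/+ libraries (blue) and 13 to 15 and 3 to 4 reads in the *Cnr1*-/- libraries (orange), while *Cnr2* has 53 to 68 and 75 to 108 reads.

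The starts of these genes differ in sequence. RefSeq (GRCm38.p6) gave 13 annotated starts for 8 of the 10 genes, each with a window from 250 bases before to 50 bases after the start. The 30 bases before the first listed start are given for both cannabinoid receptors and for a synthase (*Daglb*) and a hydrolase (*Mgll*) of 2-AG, 5′ to 3′ on the plus strand, with CpG dinucleotides in capitals.
Cnr1 (chr4:33924234-33924263): CGgatccCGacCGccCGgCGCGtgacctcc
Cnr2 (chr4:135895159-135895188): tgggCGagagggaggaggcatgaggcacac
Daglb (chr5:143464463-143464492): acttaacagccagcagctgacttcCGggtc
Mgll (chr6:88724382-88724411): gCGcCGcctcccCGCGCGtccccacccagc
The stretches of *Cnr1* and *Mgll* hold 6 and 5 CpG dinucleotides, those of *Cnr2* and *Daglb* hold 1 each. Over the whole windows of 300 bases, *Cnr1* had 40, 33 and 5 CpG at its 3 starts, *Cnr2* 3 at both of its starts, *Daglb* 11 and *Mgll* 32 and 42, beside a median of 7 and quartiles of 3 and 20 over 32851 windows of the same length. *Abhd6* (24 and 26), *Napepld* (28) and *Faah* (16) lay above that median, and *Gpr18* (5) below it. Among these 8 genes CpG content did not follow the level. Windows rich in CpG belonged to the abundant *Mgll* as well as to the barely detected *Cnr1*, at its first start. *Abhd12*, the most abundant of the 10 genes, and *Dagla* had no window. None of the 13 windows held TATAAA, the letters of the TATA box, on either strand, which 13.6% of all windows do.

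The diacylglycerol lipases make 2-AG from diacylglycerol. *Daglb*, the form known to be used by macrophages and microglia, lies on chromosome 5 (chr5:143464584-143505942, plus strand). It was 80.3, 93.4 and 92.0 cpm in the libraries labelled *Cnr1*+/+ and 87.4, 95.7 and 90.7 cpm in those labelled *Cnr1*-/-. The groups overlapped, with means of 88.6 ± 7.19 and 91.3 ± 4.18 cpm (SD, n = 3). The log2 difference was 0.05 (SE 0.132, 95% interval -0.23 to 0.32, adjusted p = 0.981, limma) and took a negative sign under 3 other scalings (-0.03 to -0.05). The 3′ end of *Daglb* overlaps that of *Rac1* on the opposite strand over 2.31 kb. *Rac1*, a small GTPase, was at 160 to 213 cpm, and without knowledge of the strand setting the level of *Daglb* is uncertain to that extent.

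*Dagla*, the form on which most synaptic 2-AG in neurons depends, lies on chromosome 19 (chr19:10245265-10304877, minus strand). It was 16.3, 11.97 and 17.4 cpm in the libraries labelled *Cnr1*+/+ and 19.5, 15.6 and 19.2 cpm in those labelled *Cnr1*-/-. The ranges overlapped, and the means were 15.2 ± 2.86 and 18.1 ± 2.18 cpm (SD, n = 3). The log2 difference was 0.26 (SE 0.227, 95% interval -0.21 to 0.72, adjusted p = 0.908, limma), an interval that includes a 1.5-fold increase. It was 0.16 with totals rescaled without mitochondrially encoded genes and 0.09 without *Cnr1*+/+ replicate 2, the lowest library.

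By the listed values *Daglb* was the main lipase in every library, with the uncertainty of its level from the overlap with *Rac1*. Its share of the summed lipase cpm was 83.1, 88.6 and 84.1% in the libraries labelled *Cnr1*+/+ and 81.8, 86.0 and 82.5% in those labelled *Cnr1*-/-. The shares overlapped, with means of 85.3 ± 2.95 and 83.4 ± 2.26% (SD, n = 3; exact permutation p = 0.5). The difference of -1.85 percentage points was -0.177 without *Cnr1*+/+ replicate 2 and -3.14 without *Cnr1*-/- replicate 2, the ends of the range over single libraries left out. A share within a library does not depend on how libraries are scaled against each other.

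Hydrolysis of 2-AG is shared by monoacylglycerol lipase, the product of *Mgll*, and by the serine hydrolases ABHD6 and ABHD12. *Mgll* carries out most 2-AG hydrolysis in the brain as a whole. It lies on chromosome 6 (chr6:88724412-88828360, plus strand) and was 96.1, 83.7 and 94.0 cpm in the libraries labelled *Cnr1*+/+ and 76.2, 85.7 and 73.6 cpm in those labelled *Cnr1*-/-. The groups overlapped by a single value, that of *Cnr1*-/- replicate 2, which lay above *Cnr1*+/+ replicate 2. The means were 91.3 ± 6.65 and 78.5 ± 6.37 cpm (SD, n = 3; exact permutation p = 0.2).

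The log2 difference of *Mgll* was -0.22 (SE 0.135, 95% interval -0.49 to 0.06) and its nominal p of 0.118 became 0.857 after adjustment (limma, Benjamini-Hochberg). This call depended on the scaling. The difference was -0.29 with libraries centred on their medians, -0.31 with quantile normalisation and -0.32 with totals rescaled without mitochondrially encoded genes. The nominal p of these limma fits was 0.0191, 0.0153 and 0.0148, and the adjusted p lay between 0.875 and 0.893. The last of these scalings lowered the median log2 difference of all genes from 0.08 to -0.02.

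Several unconfirmed transcripts are annotated within *Mgll*, 3 of them on its own strand. The highest, *Gm44005*, was 8.43, 8.88 and 9.89 cpm in the libraries labelled *Cnr1*+/+ and 6.50, 8.58 and 7.51 cpm in those labelled *Cnr1*-/-, with overlapping groups. None of these transcripts reaches the 3′ end of *Mgll*.

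*Abhd12*, whose product also hydrolyses lysophosphatidylserine in microglia, lies on chromosome 2 (chr2:150832493-150904741, minus strand). It was 273, 224 and 295 cpm in the libraries labelled *Cnr1*+/+ and 256, 284 and 287 cpm in those labelled *Cnr1*-/-. The groups overlapped, with means of 264 ± 36.1 and 276 ± 17.0 cpm (SD, n = 3). The log2 difference was 0.07 (SE 0.123, 95% interval -0.18 to 0.32, adjusted p = 0.957, limma) and lay between -0.0047 and -0.03 under the 3 other scalings.

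*Abhd6*, which encodes a membrane-bound hydrolase, lies on chromosome 14 (chr14:8002902-8056763, plus strand). It was 41.9, 39.7 and 64.9 cpm in the libraries labelled *Cnr1*+/+ and 50.8, 45.9 and 45.4 cpm in those labelled *Cnr1*-/-. *Cnr1*+/+ replicate 3 was the highest library and the other *Cnr1*+/+ replicates the lowest, so that the means of 48.8 ± 13.97 and 47.4 ± 2.99 cpm (SD, n = 3) were close. The log2 difference was -0.01 (SE 0.173, 95% interval -0.36 to 0.35, adjusted p = 0.995, limma), and 0.21 without *Cnr1*+/+ replicate 3.

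**Figure D3:**
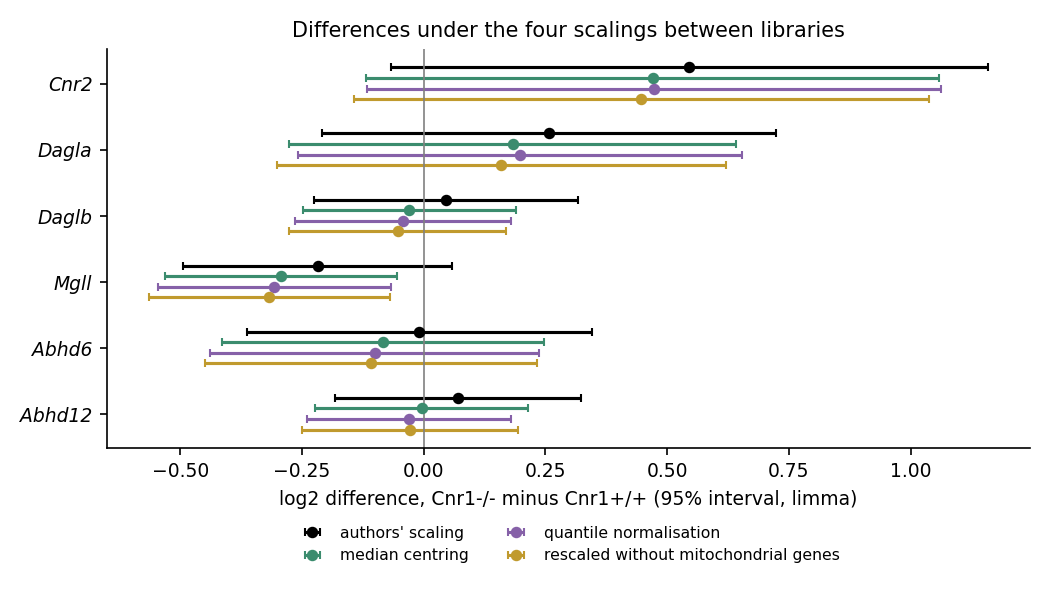
Log2 difference between genotype labels (*Cnr1*-/- minus *Cnr1*+/+) with its 95% interval from limma for *Cnr2*, fitted without a filter, and the 5 tested genes, under the scaling of the authors and 3 others. The interval of *Mgll* includes 0 under the scaling of the authors (-0.49 to 0.06) and lies below 0 under the others, and every interval of the other 5 genes includes 0.

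Within each library, *Mgll* made up 23.4, 24.1 and 20.7% of the summed cpm of the 3 hydrolases in those labelled *Cnr1*+/+ and 19.9, 20.6 and 18.1% in those labelled *Cnr1*-/-. The groups did not overlap, but *Cnr1*+/+ replicate 3 and *Cnr1*-/- replicate 2 were nearly equal. The means were 22.7 ± 1.77 and 19.5 ± 1.28% (SD, n = 3; exact permutation p = 0.1, the smallest possible). The difference of -3.19 percentage points lay between -2.48 and -4.20 on leaving out any single library, and was -3.73 without *Cnr1*-/- replicate 2.

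The share of *Abhd12* was 66.4, 64.5 and 65.0% in the libraries labelled *Cnr1*+/+ and 66.9, 68.4 and 70.7% in those labelled *Cnr1*-/- (65.3 ± 0.987 and 68.6 ± 1.93%, SD, n = 3; exact permutation p = 0.1), again without overlap. The share of *Abhd6* was 11.97 ± 2.11 and 11.8 ± 1.24% and overlapped (exact permutation p = 0.8). Since the 3 shares sum to the whole, these comparisons are not independent.

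Synthesis and breakdown were also set against each other, with the uncertainty in the level of *Daglb* given above. *Mgll* was 120, 89.6 and 102% of *Daglb* in the libraries labelled *Cnr1*+/+ and 87.2, 89.6 and 81.1% in those labelled *Cnr1*-/-, a comparison chosen after the values were seen. *Cnr1*+/+ replicate 2 and *Cnr1*-/- replicate 2 were equal to 3 digits. The summed lipases were 26.0 ± 3.76 and 27.2 ± 0.575% of the summed hydrolases (SD, n = 3; exact permutation p = 0.5). In all, 6 such ratios were compared, and with a smallest possible p of 0.1 none could pass 0.05.

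**Figure D4:**
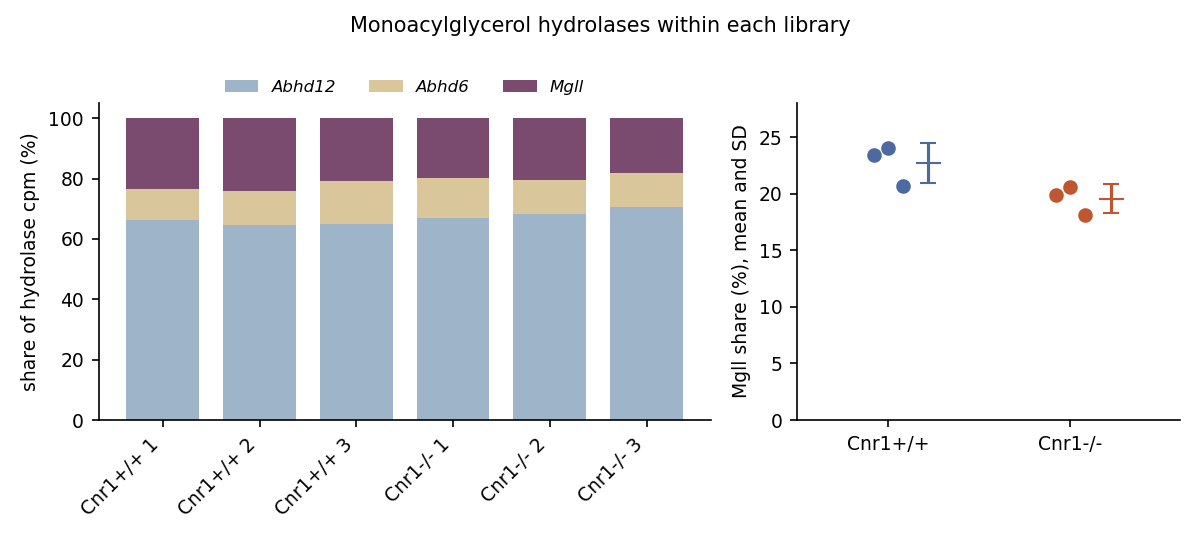
Left, share (%) of *Abhd12*, *Abhd6* and *Mgll* in the summed cpm of the 3 2-AG hydrolases in each library, as bars stacked from 0. Right, the share of *Mgll* by genotype label with points for libraries and lines for mean ± SD (n = 3), which was 22.7 ± 1.77% in the *Cnr1*+/+ and 19.5 ± 1.28% in the *Cnr1*-/- libraries.

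The anandamide enzymes were barely detected. *Napepld*, whose product releases anandamide and other N-acylethanolamines from their phospholipid precursors, lies on chromosome 5 (chr5:21662901-21701396, minus strand). It was 2.33, 0.499 and 1.37 cpm (18, 5 and 13 reads) in the libraries labelled *Cnr1*+/+ and 0.433, 0.560 and 0.954 cpm (4, 6 and 8 reads) in those labelled *Cnr1*-/-. The groups overlapped (exact permutation p = 0.3). *Faah*, encoding the main anandamide hydrolase, lies on chromosome 4 (chr4:115967145-116017926, minus strand), 82.0 Mb from *Cnr1*. It was 1.17, 0.200 and 0 cpm (9, 2 and 0 reads) in the libraries labelled *Cnr1*+/+ and 0.217, 0.653 and 0.119 cpm (2, 7 and 1 reads) in those labelled *Cnr1*-/-. *Cnr1*+/+ replicate 1 had the most reads of both genes, and a difference between genotypes was not detectable at this depth (exact permutation p = 0.9 for *Faah*).

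To place these genes in their pathway, 53 further listed genes were read from the same fit, of which 35 passed the minimum level. Of these, 6 had a nominal p under 0.05, all of them higher in the libraries labelled *Cnr1*-/-, as were 339 of the 401 calls over all tested genes (5.09% of those tested). The split was 4 higher and 1 lower with median centring, 3 and 1 with quantile normalisation and 2 and 1 with totals rescaled without mitochondrially encoded genes. None passed the adjusted threshold (adjusted p between 0.655 and 0.809, limma). The median log2 difference of the 35 genes was 0.14, with 27 positive and 8 negative values, and that of all tested genes was 0.08, with 4558 positive and 2101 negative values.

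The list of enzymes of N-acylethanolamine metabolism other than NAPE-PLD and FAAH held 3 of these 6 genes, out of 6 tested. Over all tested genes 5.09% were nominally higher, and the list was chosen with earlier results of these data known. *Gdpd3*, a lysophospholipase D, was 10.8, 6.09 and 9.78 cpm in the libraries labelled *Cnr1*+/+ and 13.7, 13.4 and 13.7 cpm in those labelled *Cnr1*-/-, without overlap (log2 difference 0.65, adjusted p = 0.792, limma). *Gde1*, a phosphodiesterase that releases anandamide from its glycerophospho precursor, was 17.3, 17.9 and 27.3 cpm against 24.9, 25.7 and 34.7 cpm, with overlapping groups (log2 difference 0.46, adjusted p = 0.809, limma). *Inpp5d*, the lipid phosphatase SHIP1, which acts mainly on phosphoinositides in blood and immune cells, was 187 ± 13.4 and 223 ± 11.3 cpm (SD, n = 3), without overlap (log2 difference 0.26, adjusted p = 0.809, limma). The nominal calls of this list were not stable, as *Gdpd3* alone kept its call under median centring and none of the 3 did under the other 2 scalings, without *Cnr1*+/+ replicate 2 or without *Cnr1*-/- replicate 3.

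Of the genes that supply or use diacylglycerol, 2 of 9 tested were nominally higher in the libraries labelled *Cnr1*-/-, with 4 positive and 5 negative values. Over all tested genes the share nominally higher was 5.09%. *Pnpla2*, the adipose triglyceride lipase, was 24.0, 21.6 and 24.5 cpm in the libraries labelled *Cnr1*+/+ and 32.9, 38.0 and 30.3 cpm in those labelled *Cnr1*-/- (log2 difference 0.52, adjusted p = 0.655, limma). *Dgkz*, a diacylglycerol kinase that removes the substrate of the lipases, was 26.8 ± 2.84 and 36.1 ± 2.94 cpm (SD, n = 3; log2 difference 0.43, adjusted p = 0.792, limma). Neither gene overlapped between genotypes. *Pnpla2* kept its nominal call in every alternative run, whereas *Dgkz* lost it with totals rescaled without mitochondrially encoded genes and without *Cnr1*-/- replicate 1, *Cnr1*-/- replicate 2 or *Cnr1*+/+ replicate 2. The most abundant members were *Dgkd*, another kinase of this family (58.7 ± 11.98 and 54.1 ± 1.48 cpm), and *Plcg2*, a phospholipase C of immune cells (48.7 ± 4.75 and 52.4 ± 1.34 cpm), and both overlapped.

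Of the genes through which Gi-coupled receptors such as CB1 and CB2 signal, 1 of 16 tested passed the nominal threshold, beside 6.02% of all tested genes. *Arrb1*, encoding β-arrestin 1, was 35.7, 49.3 and 46.5 cpm in the libraries labelled *Cnr1*+/+ and 58.5, 57.2 and 59.1 cpm in those labelled *Cnr1*-/-, without overlap (log2 difference 0.42, adjusted p = 0.702, limma). All 16 values were positive with a median of 0.16, but only 12 or 13 of them under the 3 other scalings. The nominal call of *Arrb1* was lost without *Cnr1*+/+ replicate 1 only. The most abundant were *Rgs2*, a regulator of G protein signalling (597 ± 48.3 and 626 ± 38.3 cpm), and *Gnai2*, an inhibitory G protein subunit (553 ± 25.6 and 614 ± 53.6 cpm), with overlapping groups.

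None of the 4 tested genes among other receptors and receptor partners passed the nominal threshold (limma). *Gprasp1*, a sorting protein that binds CB1, was 27.5, 32.4 and 31.3 cpm in the libraries labelled *Cnr1*+/+ and 23.0, 25.3 and 24.3 cpm in those labelled *Cnr1*-/-. Every library labelled *Cnr1*-/- was lower (log2 difference -0.33, adjusted p = 0.839, limma), and the nominal p fell under 0.05 in each of the 3 other scalings. *Trpv2*, a cation channel activated by cannabidiol, was 25.7 ± 6.55 and 24.5 ± 5.67 cpm, with overlapping groups. Of the lipid carriers, none of the 5 listed genes reached the minimum level. The highest were *Scp2* (10.4 ± 3.33 and 8.35 ± 2.00 cpm) and *Fabp5* (9.25 ± 1.63 and 8.51 ± 2.40 cpm), both overlapping.

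**Figure D5:**
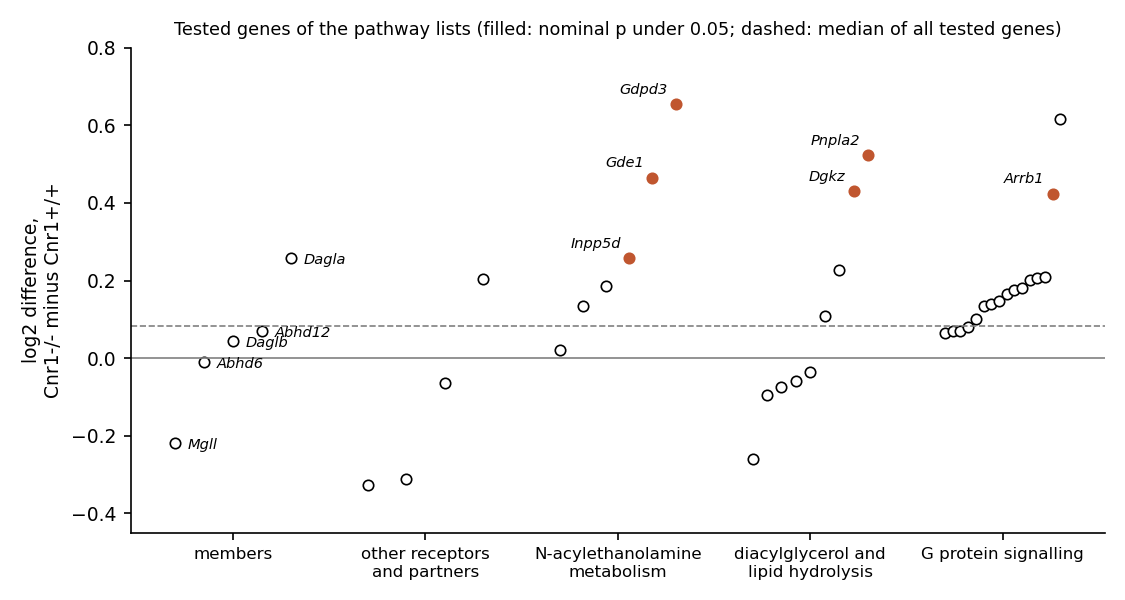
Log2 difference between genotype labels (*Cnr1*-/- minus *Cnr1*+/+) of each tested gene of the endocannabinoid genes (members) and of 4 wider pathway lists, ordered by value within a list, with nominal p under 0.05 (limma) as filled points and the median of all tested genes, 0.08, as a dashed line. The 6 filled points are all above 0 and none belongs to the 5 tested endocannabinoid genes.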

How the data were processed

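RNA was sequenced from 3' ends with the QuantSeq FWD kit (Lexogen) in 6 libraries, grouped by their labels. The authors aligned reads to mm10 with STAR, quantified them per gene with the expectation-maximisation method of Partek and scaled them with TMM. The deposited values are cpm, and the listed genes hold 50.1 to 59.1% of each library's scaled total. Since 83.4 to 85.5% of the values were whole reads (tolerance 0.02 reads), no count model was used. All columns were mapped.

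Genes averaging 10 cpm or more were tested on log2(cpm + 0.1) with limma 3.58.1 (lmFit, eBayes with trend) in R 4.3.3. Genotype was the single term, and p-values were adjusted by the Benjamini-Hochberg method. Fold changes on this scale understate those of low genes. Single values were compared by two-sided exact permutation (numpy 2.4.6), all 10 splits giving p of at least 0.1. Exact Poisson intervals were computed with scipy 1.17.1. On simulated data of the same size, 94% of 1.5-fold changes and 5.23% of unchanged genes had p under 0.05. Every simulated gene had the same spread beyond counting noise, so the 94% does not apply to genes that vary more.

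The endocannabinoid genes, pathway lists and marker lists were chosen with earlier results of these data known. Named were all 10 genes, in each pathway list the nominal calls and the 2 highest genes, the 3 neighbours of *Cnr1* on either side, the 3 genes most and least like *Cnr2*, and the leading gene of each marker list. Coordinates are those of the deposited annotation, and 18870 of 19225 symbols matched GENCODE vM21. Listed genes alone were used, so *Gpr55* and other unlisted genes were not analysed here. Alternatives were pseudocounts of 1 and 0.01, minimum means of 20 and 5 cpm or none, 3 scalings, eBayes without trend, vooma weights, a replicate block and each library left out. The minimum of 5 cpm and the background without *Cnr1*-/- replicate 2 were added after seeing the data.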

Additional observations from a re-analysis of the deposited data

How the results depend on the processing

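The nominal count over all genes was 401 (339 up and 62 down under the label *Cnr1*-/-), against 263 with a minimum mean of 20 cpm, 993 without a filter, 536 with a minimum of 5 cpm (added after seeing the data), and 251 to 600 with each library left out (251 without *Cnr1*-/- replicate 2). The split into higher and lower was 197 and 178 with median centring, 163 and 197 with quantile normalisation and 140 and 213 with rescaling without mitochondrially encoded genes. The 6 genes with an adjusted p under 0.1 and a fold change over 1.5 (limma) became 0 under these 3 scalings and without the trend, 14 without a filter, and 1 (without *Cnr1*+/+ replicate 2) to 24 (without *Cnr1*-/- replicate 3) with each library left out. The count of endocannabinoid genes was 1 under these 3 scalings (*Mgll*) and 1 without a filter (*Cnr1*), and 0 with each library left out. The wider count of 6 was 3 with rescaling and 3 to 8 with each library left out (3 without *Cnr1*-/- replicate 1 and without *Cnr1*+/+ replicate 2). Over 98 alternatives for 6 genes, 4 passed the nominal threshold (3 of *Mgll*, 1 of *Cnr2*) and 11 changed sign. With median centring, quantile normalisation and rescaling, the log2 difference of *Daglb* was -0.0299, -0.0433 and -0.0539 and that of *Abhd12* -0.0047, -0.0304 and -0.0287. With each library left out, *Daglb* lay between -0.0235 and 0.0852, *Abhd12* between -0.0420 and 0.155 and *Abhd6* between -0.14 and 0.21. The cause was not tested. Over all tested genes, same-numbered libraries did not deviate together (r = -0.0557, -0.0316 and -0.0308). This cannot exclude a pairing that affects only some genes. With the replicate block 421 genes were called, with 0 endocannabinoid and 6 wider genes. Depth limited *Napepld*, *Cnr1*, *Faah* and *Gpr18*, each with at most 18 reads in any library.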
